A study of Rattus norvegicus with 23 samples.

Results

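The late risers are 196 genes of rat hippocampal neural stem cells in a differentiation time course. Their transcript level at 12 h was close to that at 0 h, and at 36 h it was clearly higher. They were chosen from these data, out of 32883 gene identifiers listed and 18319 with at least 1 count. For each gene, CPM, a gene's count divided by the library's total and scaled to a fixed total, was averaged over the libraries of a substrate and time, soft and stiff means were averaged, and 1 was added before the log2. A gene was taken where this level at 12 h lay less than 0.5 log2 units above or below that at 0 h, and where the level at 36 h exceeded that at 0 h by 1.5 log2 units or more. The 0, 12 and 36 h values therefore describe the choice and carry no test. The 24 h libraries took no part in it. The difference between the substrates was no condition either. The limit on their 12 h average can still leave out genes changed strongly on 1 substrate alone.

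The cells came from the hippocampus of adult female rats, were of wild-type genotype, and lay on a stiff or a soft substrate. All libraries carry the same medium label, DMEM-F12 and N2 with 1 uM retinoic acid and 1% FBS, also at 0 h. The groups are stiff and soft at 0, 12, 24 and 36 h, each with 3 libraries from rounds numbered 1 to 3, and soft at 12 h with the libraries of rounds 1 and 3. No label states the substrates' stiffness as a pressure, how 0 h relates to the change of medium, or whether rounds were separate cultures, so the p-values measure the spread between these libraries, which may be technical. The identifiers were not paired with gene names (0 of 32883 matched the RefSeq tables used here). The labelled cell type was therefore not checked against its markers, and no function, sequence or gene list is given for any member. Of the 196 members, 4 are called by their identifier.

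Hippocampal neural stem cells can give rise to neurons and glia. On withdrawal of growth factors and exposure to retinoic acid and serum they leave the stem cell state in steps, with early regulators followed by genes of the maturing cell types. Retinoic acid binds nuclear receptors that act on transcription directly, so a first set of genes can respond without new protein, while later sets depend on proteins made in between. Cells sense the stiffness of what they adhere to through integrins and the actin cytoskeleton, and in neural stem cells a soft substrate is known to favour neurons over glia.

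Total counts ran from 2462360 to 6811157 per library, and 13094 to 14547 genes had at least 1 count. The 12 h groups did not overlap in depth, with 2462360 to 4803755 counts in the stiff libraries and 5428086 and 6519349 in the soft ones. All 196 members passed the filter on low counts that left 11857 genes for testing. Their counts summed over all libraries ranged from 70 to 310037, with a median of 1404.

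The late risers took a growing share of the transcripts sampled. At 0 h they held 0.538%, 0.534% and 0.521% of all counts in the 3 stiff libraries and 0.55%, 0.54% and 0.53% in the 3 soft libraries. At 12 h the shares were 0.619%, 0.631% and 0.68% on stiff and 0.592% and 0.644% on soft. All 5 lay above every 0 h library, so the group as a sum was slightly higher at 12 h although each member stayed within the limit. Part of this came from the most abundant member. Without it, the soft 12 h library of round 1 held 0.396%, within the 0 h range of 0.388% to 0.406%. At 24 h the shares were 1.34%, 1.25% and 1.32% on stiff and 1.3%, 1.35% and 1.46% on soft. At 36 h they were 2.06%, 1.9% and 1.85% on stiff and 2.13%, 2.02% and 1.99% on soft. The groups of successive times did not overlap on either substrate, whereas the substrates overlapped at every time. In RNA from whole cultures, more cells of a type and more RNA per cell cannot be told apart.

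**Figure D1:**
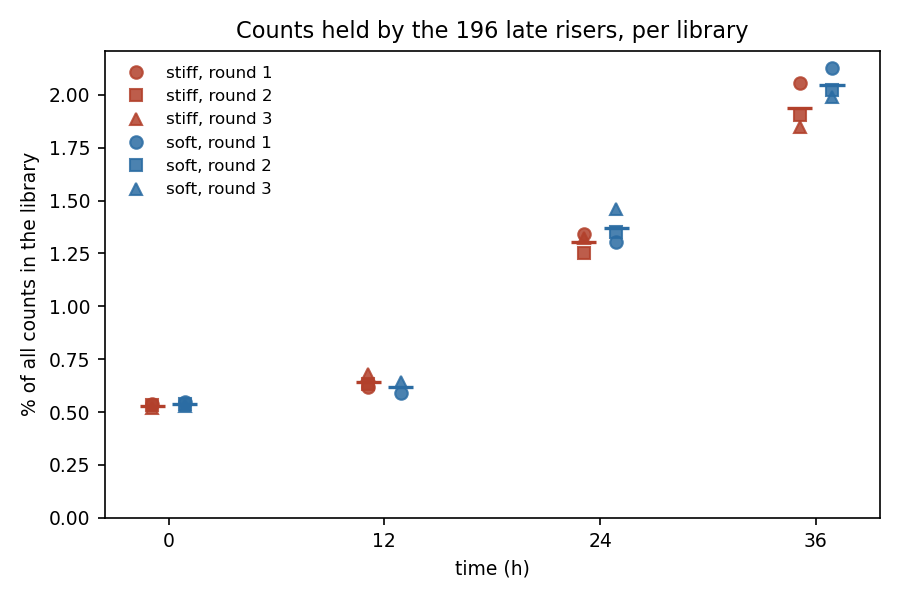
Share of all counts in each library (percent, vertical axis) held by the 196 late risers, against time in hours, with stiff libraries drawn left of soft ones and bars at the group means. The share lay between 0.521% and 0.55% at 0 h, between 0.592% and 0.68% at 12 h, and between 1.85% and 2.13% at 36 h, and the substrates overlapped at each time.

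On the log2 scale the step from 12 h to 24 h was the larger of the later ones, while in CPM the gains before and after 24 h were nearer in size. The median level over the members was 4.81 CPM at 0 h, 5.04 CPM at 12 h, 14.8 CPM at 24 h and 27.6 CPM at 36 h. Steps were also taken per gene on the log2(CPM + 1) scale. Their median over the members was 0.15 from 0 h to 12 h, 1.10 from 12 h to 24 h and 0.61 from 24 h to 36 h. Over all 11857 tested genes it was -0.02, 0.07 and 0.00. The larger of the later steps was that from 12 h to 24 h in 168 of 196 members. All 196 had a higher level at 24 h than at 12 h, by 0.30 to 2.78 log2 units, and 195 had a higher level at 36 h than at 24 h. The one exception differed by -0.04. At 24 h 52 members had already passed a difference of 1.5 from 0 h.

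**Figure D2:**
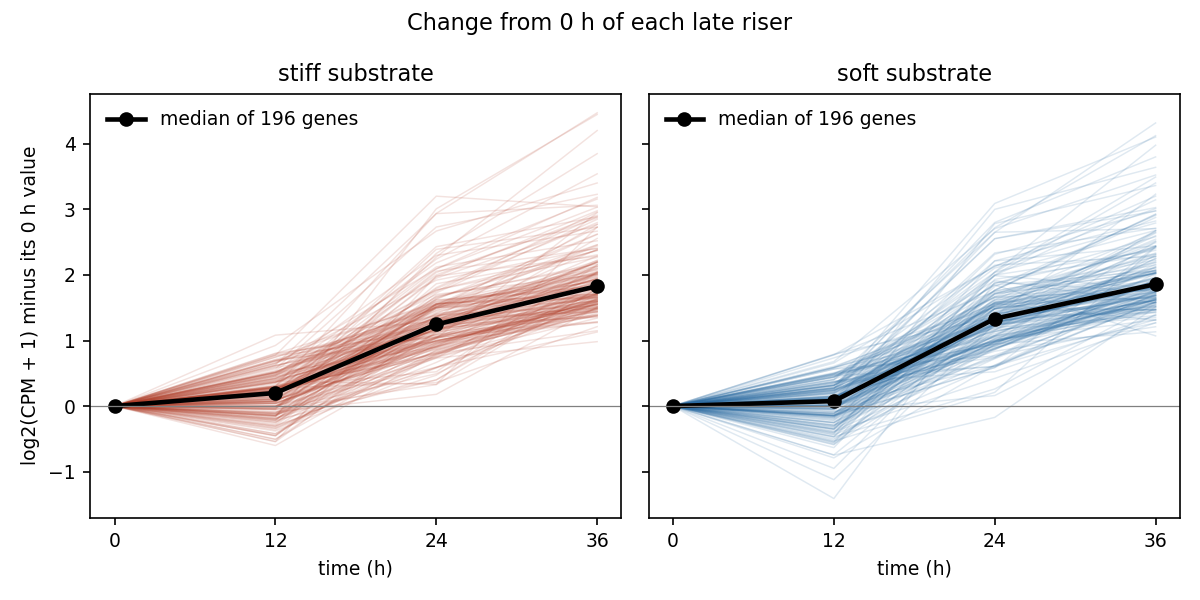
Change of each late riser from its own 0 h level, in log2(CPM + 1) on the vertical axis, at 0, 12, 24 and 36 h on the stiff (left) and soft (right) substrate, with 1 thin line per gene and the median in black. The median stood at 0.20 on stiff and 0.08 on soft at 12 h, at 1.25 and 1.33 at 24 h, and at 1.83 and 1.86 at 36 h.

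The 24 h level can be placed within the rise of each gene, as the share of the 0 h to 36 h log2 difference that had been reached by then. Over the late risers this share had a median of 67.4%, with quartiles of 58.5% and 79.4%. In CPM, without logarithm, the median share of the gain reached at 24 h was 51.7%. A total of 7 members had reached under 33.3% on the log2 scale, 85 between 33.3% and 66.7%, 103 between 66.7% and 100%, and 1 stood above its 36 h level. A further 413 genes passed the same 36 h threshold but were already higher by 0.5 or more at 12 h. They had a median share of 91.6% and a lower quartile of 82.1%. Part of that contrast follows from the rule, since these genes had a head start at 12 h. They also stood higher by 36 h, with a median difference from 0 h of 2.27 against 1.80 for the late risers. From 24 h to 36 h their median step was 0.21, against 0.61 for the late risers, and 104 of the 413 (25.2%) were higher at 24 h than at 36 h. Another 3 genes met the 36 h threshold but were lower by 0.5 or more at 12 h. The late risers thus make up 196 of 612 genes with a 36 h level at least 1.5 above that at 0 h.

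**Figure D3:**
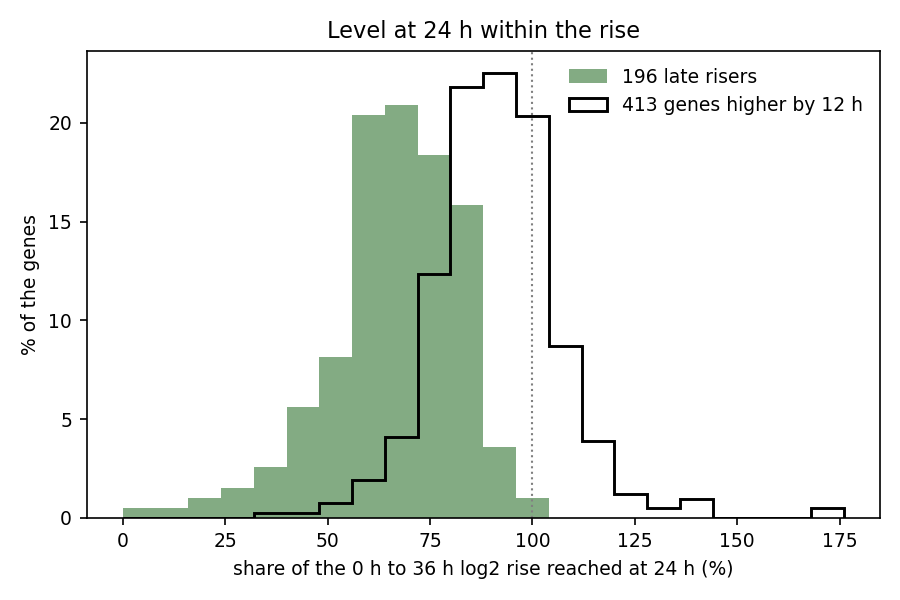
Share of the 0 h to 36 h log2 difference reached at 24 h (percent, horizontal axis) for the 196 late risers (filled) and the 413 genes already higher at 12 h (outline), with the percent of each set on the vertical axis and a dotted line at 100%. The late risers centre on 67.4% and the other genes on 91.6%, with 1 late riser and 104 of the 413 beyond the line.

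The extremes of this timing were genes of low level. The member with the lowest share at 24 h, 3.17%, was measured at 4.51, 2.16 and 2.11 CPM on stiff and 5.67, 4.17 and 4.34 CPM on soft at 0 h. At 24 h it had 3.35, 5.52 and 2.91 CPM on stiff and 3.19, 3.08 and 5.97 CPM on soft, and at 36 h 15.8, 13.8 and 8.20 CPM on stiff and 18.7, 14.2 and 13.2 CPM on soft. Its 24 h libraries overlapped those of 0 h and lay below every 36 h library, so nearly all of its difference arose in the last 12 h. The member above its 36 h level at 24 h had 10.4, 9.70 and 18.8 CPM on stiff and 17.4, 9.54 and 11.7 CPM on soft at 24 h. At 36 h it had 16.03, 14.8 and 23.2 CPM on stiff, where 2 of 3 libraries lay within the 24 h range, and 5.04, 8.49 and 7.77 CPM on soft, all below the 24 h libraries. Its stiff and soft libraries did not overlap at 36 h, although the difference missed the threshold (log2 difference 1.32, SE 0.35, edgeR, Benjamini-Hochberg adjusted p = 0.159).

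Members spanned a wide range of abundance. At 0 h 50 of them were under 1 CPM, 74 between 1 and 10, 61 between 10 and 100, and 11 at 100 CPM or more. The median 36 h level was 4.27 CPM in the lowest class, against 19.3, 84.9 and 560 CPM in the next ones, and in the lowest class it ran up to the 32.1 CPM of ENSRNOG00000013658. The median ratio of 36 h to 0 h CPM was 4.58 for members starting between 1 and 10 CPM, 3.37 between 10 and 100 CPM, and 3.08 from 100 CPM. With 1 CPM added before the logarithm, low genes need a larger ratio to enter, so these ratios are partly set by the rule. The median share reached at 24 h was 64.7%, 67.7%, 71.4% and 63.5% in the 4 classes. No count was seen at 0 h for 4 members. At 36 h 140 members stood at 10 CPM or more and 38 at 100 CPM or more.

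A single gene carried 21.9% of the summed CPM of the members at 36 h, and the 5 most abundant carried 39.0%. The most abundant member had 1456, 1339 and 1301 CPM on stiff and 1432, 1472 and 1414 CPM on soft at 0 h. At 12 h it had 1792, 1730 and 1722 CPM on stiff and 1967 and 2037 CPM on soft. At 24 h the values were 3146, 3132 and 3275 CPM on stiff and 2881, 3194 and 3729 CPM on soft, and at 36 h 4415, 4358 and 4226 CPM on stiff and 4831, 4607 and 3780 CPM on soft. Its 12 h libraries all lay above those of 0 h and its log2 difference at 12 h, 0.42, was near the limit of the rule. Without it, the share of counts held by the other members was 0.388% to 0.406% at 0 h and 1.42% to 1.64% at 36 h. At 12 h it was 0.440%, 0.458% and 0.507% on stiff and 0.396% and 0.440% on soft, so 0 h and 12 h overlapped on soft.

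Among the members, 68 had a 36 h level at least 2 log2 units above that at 0 h, 15 at least 3 and 3 at least 4. The largest difference, 4.31, belonged to ENSRNOG00000013916. It was measured at 2.58, 3.09 and 1.72 CPM on stiff and 3.33, 2.57 and 0.724 CPM on soft at 0 h, and at 3.33, 2.44 and 4.03 CPM on stiff and 2.95 and 2.76 CPM on soft at 12 h. At 24 h it reached 22.2, 23.2 and 31.2 CPM on stiff and 21.96, 28.8 and 28.2 CPM on soft, and at 36 h 70.0, 76.9 and 81.2 CPM on stiff and 54.9, 57.9 and 49.7 CPM on soft. The libraries of 0 h and 12 h overlapped, those of 24 h and 36 h stood clear of them and of each other, and at 36 h every stiff library lay above every soft one. That last difference did not pass the test over all genes (log2 difference 0.49, SE 0.16, edgeR, Benjamini-Hochberg adjusted p = 0.328).

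ENSRNOG00000013658 came next with a difference of 4.30 and started lower. At 0 h it had 0.322, 0.771 and 0.957 CPM on stiff and 0.782, 1.28 and 0 CPM on soft, from 0 to 8 counts per library, and at 12 h 0.416, 0.406 and 0.671 CPM on stiff and 1.11 and 1.07 CPM on soft. It reached 11.6, 12.9 and 13.2 CPM on stiff and 8.19, 10.7 and 11.5 CPM on soft at 24 h, and 41.0, 36.7 and 29.7 CPM on stiff and 25.5, 29.3 and 30.7 CPM on soft at 36 h. No 24 h library overlapped an earlier or a later one. The stiff and soft libraries of 36 h overlapped (log2 difference 0.35, SE 0.20, edgeR, Benjamini-Hochberg adjusted p = 0.77).

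Libraries of a time were also set against those of another time, on each substrate. For every one of the 196 members all 36 h libraries lay above all 0 h libraries on stiff and likewise on soft, a pattern found on both substrates in 25.6% of all tested genes. Since the rule used these values, nothing is read from that count. Between 24 h and 12 h the libraries stood apart upward on both substrates in 165 members (84.2%), against 16.8% of tested genes, and between 36 h and 24 h in 114 members (58.2%), against 5.96%. These last contrasts share the 12 h or 36 h libraries with the rule. The rule also sets a minimum rise from 12 h to 36 h, with 1.06 as the lowest among the members. Nothing is therefore read from these counts either. Within a round, the median difference between 36 h and 0 h was 1.93, 1.83 and 1.79 on stiff and 1.93, 1.87 and 1.94 on soft for rounds 1, 2 and 3, and all 196 members were above 0 in each. The rule chose the members on the mean of these libraries, so the values describe the spread between rounds and support nothing further. The median difference between 12 h and 0 h in single rounds was 0.09, 0.08 and 0.27 on stiff in rounds 1, 2 and 3 and -0.03 and 0.18 on soft in rounds 1 and 3, and 120 to 147 of the 196 members lay within 0.5 of 0 h in a single round. For members at 5 CPM or more, the median coefficient of variation between libraries of a group was 11.6% to 14.97%.

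Members close to the limits of the rule were numerous. On L36 minus L0, the difference of the averaged log2 level between 36 h and 0 h, 42 members lay under 1.6. The 3 nearest inside stood at 1.508, 1.509 and 1.510, and the 3 nearest outside at 1.499, 1.499 and 1.496. At the upper limit for 12 h, the nearest inside stood at 0.499, 0.496 and 0.490 and the nearest outside at 0.502, 0.505 and 0.505, and 28 members lay at 0.4 or more. At the lower limit, the nearest inside stood at -0.490, -0.486 and -0.470 and the nearest outside at -0.567, -0.574 and -1.01.

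With the substrates taken singly, some members crossed the 12 h limit that their average kept. These are means of 2 or 3 libraries, so a crossing alone is no tested difference between substrates. On each substrate alone, 132 of the 196 stayed within 0.5 of their 0 h level on both. A total of 31 were higher by 0.5 or more on stiff and within the limit on soft, and 2 were higher on stiff and lower on soft. Within the limit on stiff, 14 were higher and 12 lower on soft, and 5 were lower on stiff and within the limit on soft. The difference between 36 h and 0 h reached 1.5 on stiff in 165 members, on soft in 174, and on both in 143, with lowest values of 0.98 on stiff and 1.07 on soft. All conditions of the rule were met on each substrate taken separately by 101 members.

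Whether the substrate altered the late risers was tested by the difference between stiff and soft, in 1 fit to all 11857 tested genes. At 12 h 13 members were called higher on stiff and 0 lower (edgeR quasi-likelihood test, Benjamini-Hochberg adjusted p under 0.05). That is 6.63% of the members, beside 6.6% of all tested genes called, of which 5.36% were higher and 1.24% lower, so the late risers were called at about the background rate. Their median log2 difference at 12 h was 0.08, against -0.03 over all tested genes. In the 13 called members the log2 difference between stiff and soft ran from 0.52 to 3.99 with a median of 0.81. From 0 h to 12 h these 13 had a median change of 0.62 on stiff, above 0 in all 13, and of -0.29 on soft, below 0 in 12. The rule kept the average of the substrates near its 0 h level, so a member that is higher on stiff is drawn towards opposite signs, and nothing is read from them. Every stiff library lay above every soft library at 12 h in 43 members (21.9%), where the background was 19.7% of tested genes, and below in 19 (9.69%), where it was 15.1%. The count of 13 rests on 2 soft libraries. Leaving out either left 1 library in that group, and fewer members and fewer of all tested genes were called. The members' median log2 difference was then 0.00 without soft 12 h replicate 1 and 0.19 without soft 12 h replicate 3. Over all tested genes it was -0.01 in both fits. The remaining soft library was there assumed to vary as the other groups do. The stiff 12 h libraries were also shallower than the soft ones, and the part of this in the result was not tested.

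**Figure D4:**
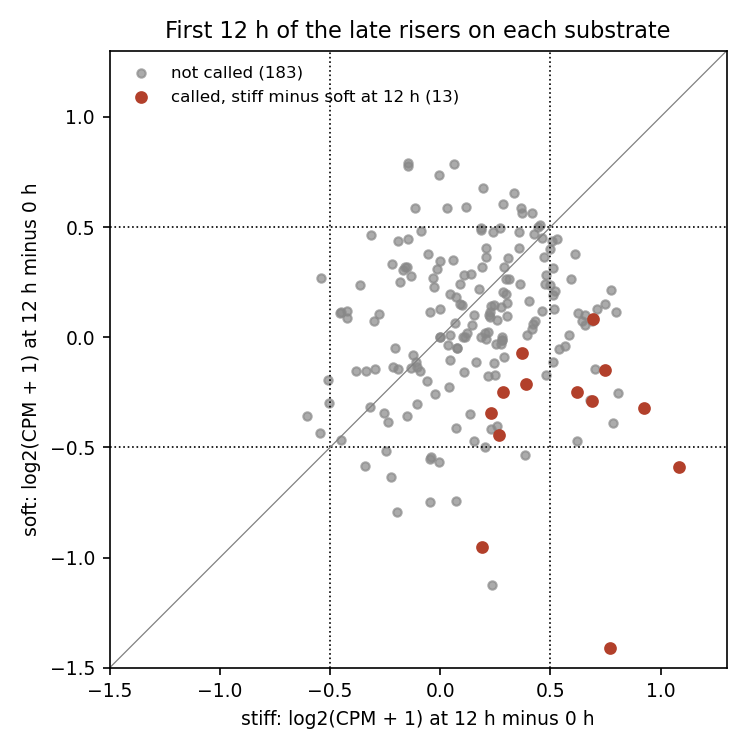
Difference between 12 h and 0 h in log2(CPM + 1) on the stiff substrate (horizontal axis) and the soft substrate (vertical axis) for the 196 late risers, with the 13 called between substrates at 12 h in red, dotted lines at 0.5 and -0.5, and equality as a grey line. All 13 lie right of 0 and 12 of them below 0 on the soft axis, while 132 of the 196 genes lie inside the central square.

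ENSRNOG00000013265 had the smallest p of the members at 12 h. It was measured at 60.9, 62.6 and 71.8 CPM on stiff and 79.6, 69.8 and 63.2 CPM on soft at 0 h, and at 97.0, 99.9 and 120 CPM on stiff and 57.7 and 57.8 CPM on soft at 12 h. The groups overlapped at 0 h and were far apart at 12 h, where stiff lay above and soft below all 0 h libraries (log2 difference 0.83, SE 0.12, edgeR, Benjamini-Hochberg adjusted p = 1.00e-05). At 24 h the values were 136, 134 and 141 CPM on stiff and 126, 155 and 143 CPM on soft, again overlapping. At 36 h they were 188, 201 and 169 CPM on stiff and 220, 208 and 229 CPM on soft, with every stiff library below every soft one (log2 difference -0.22, SE 0.10, edgeR, Benjamini-Hochberg adjusted p = 0.652).

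ENSRNOG00000002828 showed a wider gap at 12 h, with 26.6, 37.0 and 37.6 CPM on stiff and 9.40 and 10.7 CPM on soft (log2 difference 1.67, SE 0.27, edgeR, Benjamini-Hochberg adjusted p = 6.53e-05). Its 0 h libraries held 9.35, 20.2 and 16.7 CPM on stiff and 19.4, 14.1 and 13.5 CPM on soft. At 24 h it had 41.9, 35.4 and 40.3 CPM on stiff and 58.5, 47.3 and 37.9 CPM on soft, and at 36 h 52.7, 43.8 and 35.3 CPM on stiff and 45.7, 40.7 and 67.6 CPM on soft. On stiff 2 of the 3 12 h libraries already lay within the 24 h range, whereas on soft both lay below every 24 h library, and the substrates overlapped at 0, 24 and 36 h. Taken alone, each substrate was outside the 12 h limit of the rule, with a difference from 0 h of 1.08 on stiff and -0.59 on soft.

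**Figure D5:**
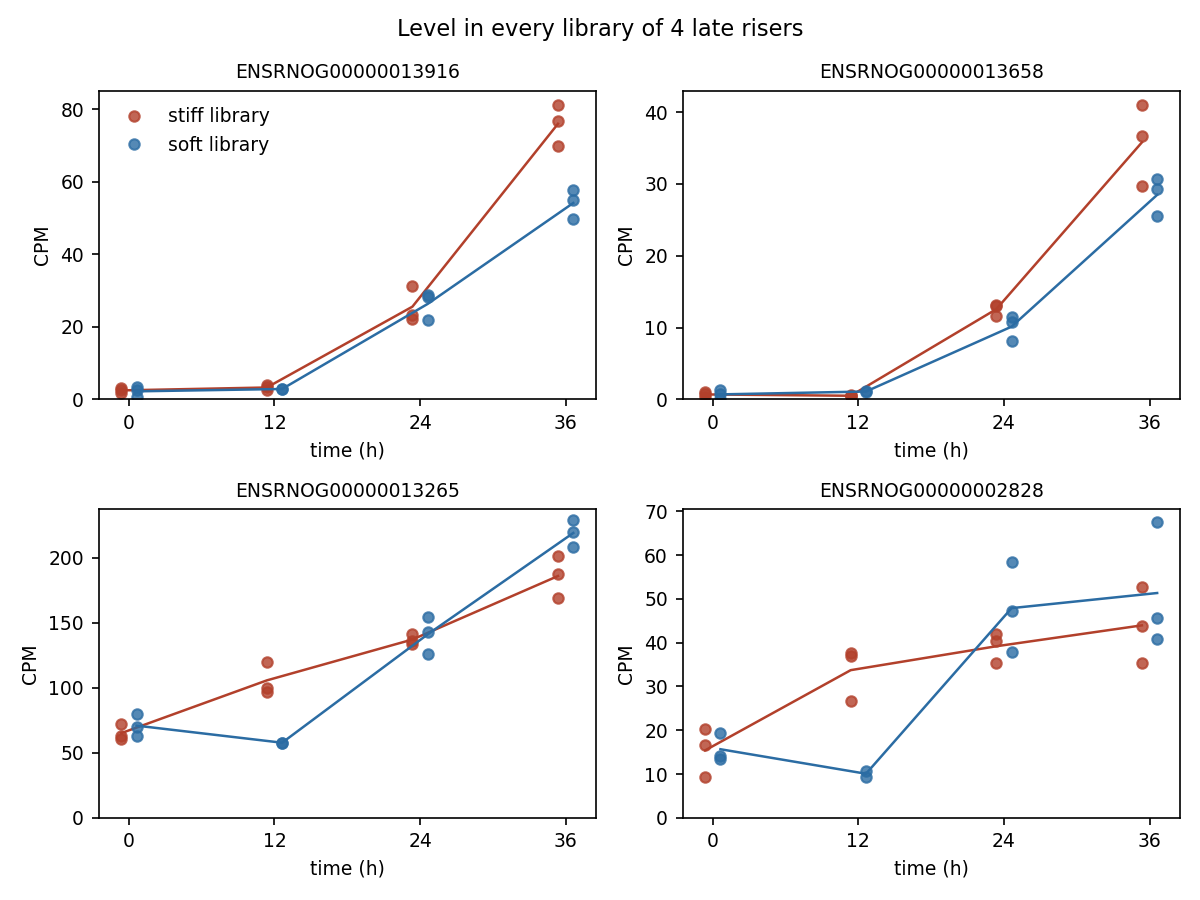
Level in CPM (vertical axis) in each library at 0, 12, 24 and 36 h for the 2 late risers with the largest difference between 36 h and 0 h (top) and the 2 with the smallest p between substrates at 12 h (bottom), with stiff points left of soft points and lines through the group means. The upper genes are low to 12 h on both substrates, and the lower genes part at 12 h, at 97.0 to 120 CPM on stiff and 57.7 and 57.8 CPM on soft for ENSRNOG00000013265.

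The largest difference among the called members, 3.99 (SE 0.78), belonged to a gene of few counts. At 12 h it had 4.16, 7.31 and 6.71 CPM on stiff, from 18 to 20 counts per library, and 0.553 and 0.153 CPM on soft, from 3 counts and 1 count (edgeR, Benjamini-Hochberg adjusted p = 0.000851). At 0 h it had 0.806, 4.01 and 4.60 CPM on stiff and 2.74, 3.85 and 1.21 CPM on soft, and by 36 h 20.6, 9.03 and 11.9 CPM on stiff and 10.4, 8.49 and 14.4 CPM on soft. Both soft libraries of 12 h lay below all other libraries of this gene.

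The change from 12 h to 36 h was compared between substrates in the same fit. It was smaller on stiff than on soft in 15 members and larger in 0 (edgeR quasi-likelihood test, Benjamini-Hochberg adjusted p under 0.05), 7.65% of the members beside 5.51% of all tested genes, of which 4.28% were smaller on stiff and 1.23% larger. The median of this difference was -0.18 over the members and 0.01 over all tested genes, and among the 15 it ran from -3.62 to -0.47. It was -1.05 (SE 0.15) for ENSRNOG00000013265, at an adjusted p of 2.28e-05, and -1.85 (SE 0.34) for ENSRNOG00000002828, at an adjusted p of 0.000557, both by the edgeR test with Benjamini-Hochberg adjustment. This comparison shares the 12 h libraries with the one above, so it is not a separate observation of the 12 h difference. From 0 h the 15 members had a median change by 36 h of 1.55 on stiff and 1.75 on soft.

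An F test asked whether stiff minus soft at any later time departed from its 0 h value, and 11 members passed (3 coefficients in edgeR, Benjamini-Hochberg adjusted p under 0.05), 5.61% of them beside 3.31% of all tested genes. From 0 h to 12 h the 11 had a median change of 0.37 on stiff and -0.29 on soft, where the rule again favours opposite signs. Fewer members, and fewer of all tested genes, passed when either soft 12 h library was left out, which left 1 library in that group.

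At 0 h and 24 h no member passed the test in either tool. At 0 h edgeR and DESeq2 each called 0 members, with 11 at an unadjusted p under 0.05 by edgeR, and at 24 h both again called 0, with 6. The background was 0% called at either time, with 3.63% and 3.02% of all tested genes at an unadjusted p under 0.05. At 24 h all 6 lay lower on stiff, the direction of 1.43% of all tested genes, and the median log2 difference of the members was -0.08, against 0.00 over all tested genes.

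At 36 h edgeR called 0 of 196 members, beside 0.0675% of all tested genes, and DESeq2 called 2, 1 in each direction, among 47 of 11857 genes. An unadjusted p under 0.05 was reached in edgeR by 28 members (14.3%), 7 higher and 21 lower on stiff, where 7.04% of all tested genes reached it, 3.22% higher and 3.82% lower. In 32 members (16.3%) every stiff library lay below every soft library at 36 h, where the background was 7.38% of tested genes, and in 8 (4.08%) above, where it was 5.31%. The median log2 difference was small, at -0.05 in the members and -0.01 in all tested genes. The member with the smallest p had 67.4, 60.3 and 51.2 CPM on stiff and 95.8, 79.1 and 90.9 CPM on soft at 36 h. The groups did not overlap (log2 difference -0.55, SE 0.13), and its Benjamini-Hochberg adjusted p in edgeR was 0.103. The same gene was higher on stiff at 0 h in every library, with 16.3, 15.7 and 17.04 CPM against 13.9, 11.2 and 8.44 CPM on soft, and was not called there. At 12 h it was also higher on stiff (log2 difference 0.64, SE 0.20, edgeR, Benjamini-Hochberg adjusted p = 0.0505). It was among the members called for the change from 12 h to 36 h (-1.19, SE 0.24, edgeR, Benjamini-Hochberg adjusted p = 0.00188) and in the F test (Benjamini-Hochberg adjusted p = 0.00163).

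The whole difference from 0 h to 36 h was of much the same size on both substrates at the level of the group. Its median was 1.83 on stiff and 1.86 on soft, and 94 of 196 members had the larger value on stiff. Stiff minus soft of that difference had a median of -0.02 with quartiles of -0.27 and 0.16. In the test of this difference edgeR called 0 members, beside 0.00843% of all tested genes, 20 reached an unadjusted p under 0.05 (5 larger and 15 smaller on stiff, beside 5.88% of all tested genes, 2.69% larger and 3.19% smaller), and DESeq2 called 1, among 2 of 11857 genes. Averaged over the 4 times, stiff minus soft was called in 0 members by edgeR and 0 by DESeq2, beside 0.447% of all tested genes, with 23 at an unadjusted p under 0.05 in edgeR, where 8.87% of all tested genes reached it. With 2 or 3 libraries a group these counts do not show that single members behaved alike on both substrates.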

How the data were processed

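Per the labels' protocols, RNA was purified on columns after genomic DNA removal, and QuantSeq FWD libraries, which read tags near transcript 3' ends, were prepared. Reads were handled with HISAT2 2.1.0, HTSeq and FastQC on build rn6, tools listed in the submitters' processing notes. For annotation release, strand setting and duplicate handling the entry is "not given in the sources used here", so overlapping or near-identical genes may share reads. The authors deposited raw whole-number counts per gene, 1 column per library, without normalization.

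Members were found on CPM from unscaled column totals. Tests used edgeR 4.0.16 in R 4.3.3 (quasi-likelihood F test, 8 group means, 23 libraries, TMM factors, filterByExpr with a minimum count of 10 and minimum total of 15), with Benjamini-Hochberg adjustment over 11857 genes and a threshold of 0.05. The standard error follows from the F statistic. Replicate pairs differed by more than sampling noise (chi-square over degrees of freedom between 2.42 and 9.11, genes with 20 or more counts). Alternatives included DESeq2 1.42.0. Figures used matplotlib 3.10.9.

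Members and lists were chosen with earlier results of these data known. Gene lists and the rule for named genes could not be applied without gene names, and promoters could not be matched. Printed identifiers are the 2 members with the largest rise and, chosen after values were seen, the 2 with the smallest p for the 12 h to 36 h difference. Other members are described without identifier.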

Additional observations from a re-analysis of the deposited data

Results flagged for a closer look

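The change from 12 h to 36 h differed between stiff and soft, by a test of that difference, in 15 late risers, and stiff minus soft departed from its 0 h value in 11 by the F test over later times (edgeR with Benjamini-Hochberg adjustment, background 5.51% and 3.31% of tested genes). Both counts use the soft 12 h group of 2 libraries. Of single genes, the 12 h to 36 h change on stiff minus that on soft was -1.05 for ENSRNOG00000013265 and -1.85 for ENSRNOG00000002828. No group held 4 or more libraries, so single libraries were not examined for values far from the rest of their group.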

How the results depend on the processing

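The rule gave 178 members on TMM-scaled totals, all of them among the 196, and 229 with a pseudocount of 0.5, of which 171 were shared. With a pseudocount of 5 it gave 105, of which 77 were shared, since low genes then need a larger rise. Soft libraries alone gave 211 (149 shared) and stiff libraries alone 174 (133 shared). Leaving out single libraries gave 184 to 217. For the same 196 members, the median share of the rise reached at 24 h, 67.4%, lay between 63.2% and 69.2% under the other settings. With single libraries left out it lay between 66.3% and 69.3%, again for the 196.

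Stiff minus soft at 12 h called 14 to 17 members under the other scalings, filters, fits and tool, and 7 to 15 with 1 library left out. For the change from 12 h to 36 h these ranges were 15 to 17 and 11 to 18, and for the F test 11 to 14 and 5 to 14. At 36 h 5 members were called with no filter on low counts, among 97 of 18319 genes, and 1 with the compared groups alone, among 28 of 10470. DESeq2 called 2, among 47 of 11857, and 0 were called with single libraries left out, among 1 to 13 genes. With no filter 3 were called for the average over times, among 147 of 18319 genes. For the change from 0 h to 36 h no filter gave 2, among 23 of 18319, and DESeq2 1, among 2 of 11857. The average over times gave 0 to 1 with 1 library left out of a group of 3, among 25 to 119 genes. The causes were not tested. For ENSRNOG00000013916 and ENSRNOG00000013658 the sign of stiff minus soft at 36 h did not change under any setting run, and neither was called. For ENSRNOG00000013265 and ENSRNOG00000002828 the signs at 12 h and for the change from 12 h to 36 h did not change either. Both stayed called in these 2 contrasts in all fits that kept both soft 12 h libraries. Without soft 12 h replicate 1 or 3, 1 library was left in that group. The 12 h differences were then 0.86 and 0.80 for ENSRNOG00000013265, and 1.62 and 1.74 for ENSRNOG00000002828. Other contrasts of the 4 identifiers were not compared between settings.

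Round numbers were also tried as a replicate block. Of 11 same-numbered stiff and soft pairs, 5 had deviations correlated above 0.1, with all pairs from -0.01 to 0.17. Best with their own number correlated 19 of the 23 libraries, where stiff 12 h replicate 2 had no partner. What a round shares is not labelled, and the main counts come from the fit without the block. With the block 17 members were called at 12 h, among 969 of 11857 genes. At 36 h the block gave 2 members among 48 genes, against 0 among 8 without it. For the change from 12 h to 36 h 17 members were called, among 822 of 11857 genes, and 13 in the F test, among 569. The block changed no other count of called members. Depth limits the members under 1 CPM at 0 h, where a library of these totals holds few counts.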
